A study of Homo sapiens with 8 samples.

Results

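Mitochondrial ribosomal protein genes were followed in K562 cells, an established human leukaemia line, after 6 h of estradiol or vehicle. The members are the genes whose single annotated symbol is MRPL or MRPS followed by a number and at most 1 further letter, and 75 of the 19775 genes measured met that rule, 48 of the large subunit and 27 of the small subunit. The estradiol group was 4 arrays of cells given 1 µM beta-estradiol, and the vehicle group was 4 arrays of cells given ethanol. All 8 samples came from cells stably transfected with p42-C/EBPα-ER, a fusion of the full-length C/EBPα transcription factor with the oestrogen receptor that enters the nucleus when estradiol is added. All grew without phenol red in RPMI with 10% charcoal-stripped serum. Cells without the fusion were not analysed here, so an effect of estradiol itself and one of the fusion cannot be told apart. The number of clones in the line and the promoter of the fusion were not given in the sources used here, and nor were separate cultures.

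The mitochondrial ribosome translates the few messages of the mitochondrial genome, all of them for subunits of the respiratory chain and ATP synthase. Its rRNAs are made in the organelle, while every one of its proteins is encoded in the nucleus, made in the cytosol and imported. Some of these proteins descend from bacterial ribosomal proteins and others are found only in mitochondrial ribosomes. The small subunit reads the message, and the large subunit forms the peptide bond and holds the exit tunnel.

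Array medians lay between 4.97 and 5.08 (log2), and with 4 arrays a group the number of arrays sets how precise each value is. Of 9 measured markers of K562 cells all lay above the array medians, at mean log2 levels of 7.12 to 13.95. Their mean over the list was 10.46 to 10.49 on the estradiol arrays and 10.69 to 10.75 on the vehicle arrays, and 5 of the 9 fell. The part of that shift in the results on the members was not tested. Of 11 markers of other blood and stromal cells 7 lay above the array medians, the highest at 7.96, and the list mean was 5.55 to 5.68 with estradiol and 5.56 to 5.63 with vehicle. PECAM1, an adhesion molecule of endothelial cells, platelets and leukocytes, was the marker of that list that rose, with log2 levels of 6.52, 6.32, 6.54 and 6.3 with estradiol, against 5.92, 5.78, 5.87 and 5.86 with vehicle (0.56 ± 0.07, limma adjusted p = 0.000451), and its part in the results on the members was not tested. In bulk samples less RNA per cell and fewer cells with the RNA cannot be told apart.

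With estradiol 20 of the 75 genes fell and 4 rose, by small amounts, and the other 51 did not pass the test (limma, Benjamini-Hochberg adjusted p below 0.05 over all genes). The largest fall was that of MRPS12, a protein of the decoding centre, at 1.34-fold, and the largest rise that of MRPL46, a protein found only in mitochondrial ribosomes, at 1.24-fold. Falls made up 26.7% of the members, against 9.6% of all genes, and rises 5.33%, against 8.29% of all genes. Bright genes vary less between arrays and pass the test more often. All 75 members lay between 8.48 and 12.13 in mean log2 level, and of the 4108 genes in that range 18.7% fell and 18.4% rose. These genes of like level share the members' range of levels and were not matched to them within it. Set beside them, the members had a somewhat higher share of falls and a lower share of rises. These differences were not tested. The median change was −0.06 on the log2 scale over the members, −0.03 over all genes and 0.01 over the genes in that level range. The median spread within a group (SD of a gene's log2 values, both groups pooled) was 0.0388 for members, 0.102 for all genes and 0.051 for genes in that level range.

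**Figure D1:**
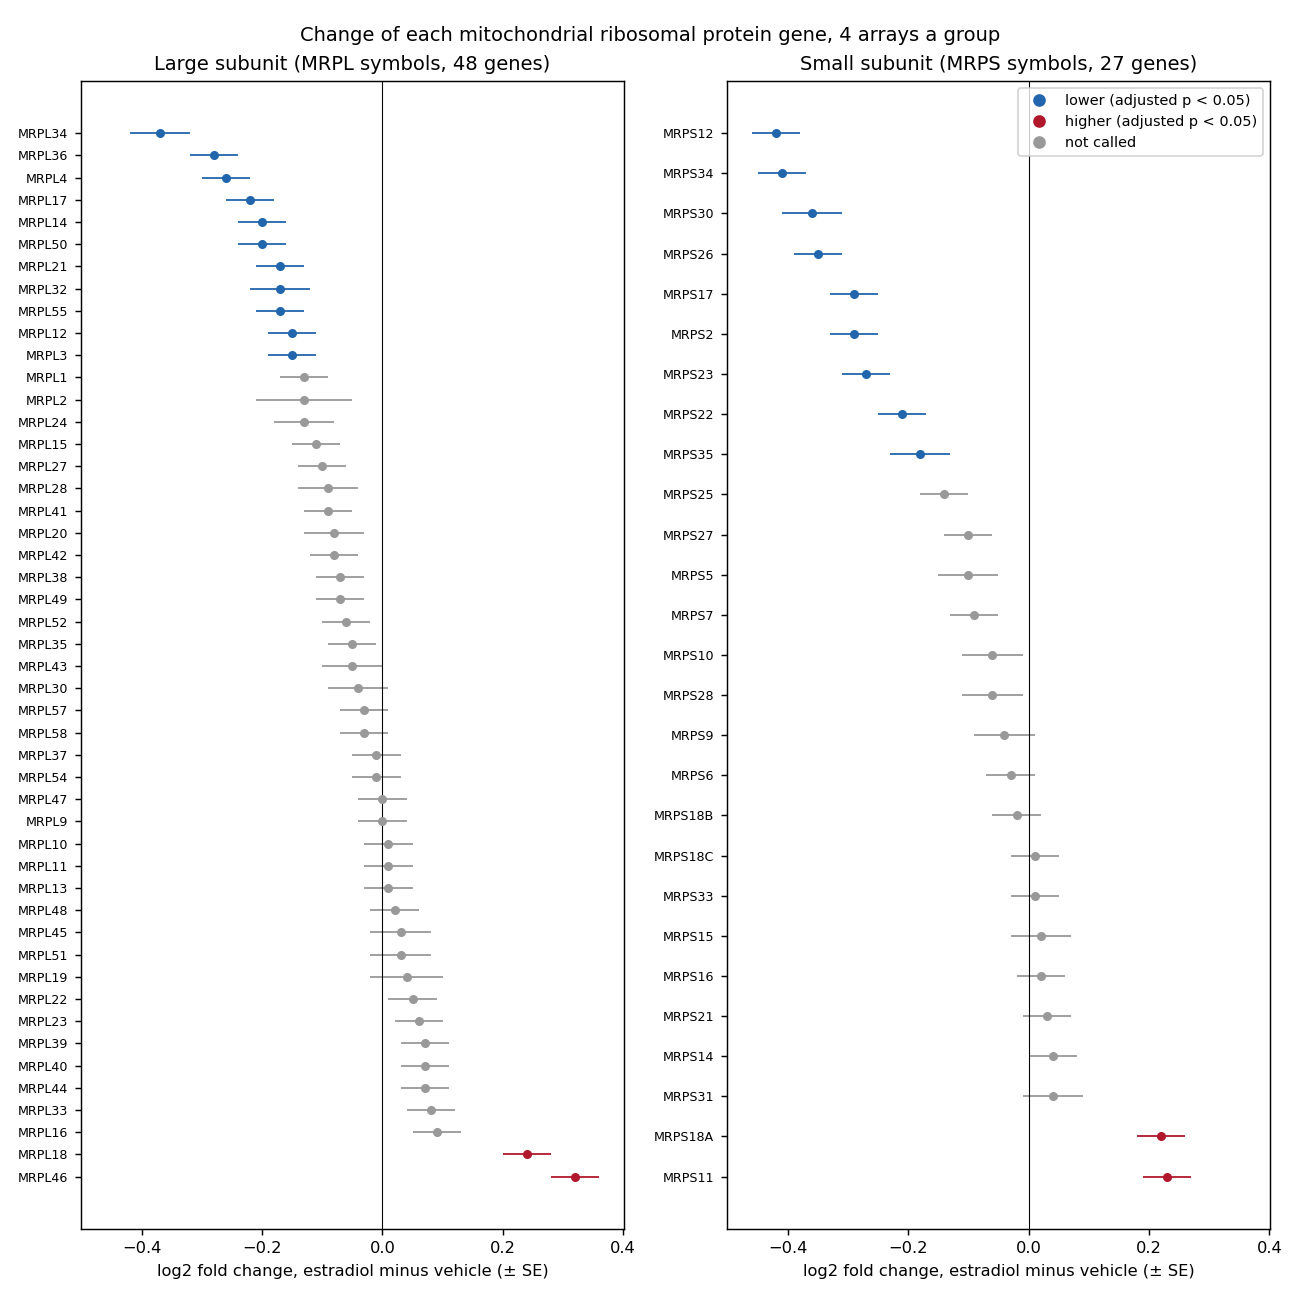
Each point is the log2 fold change of 1 gene, estradiol minus vehicle, with its standard error from limma, for the 48 large subunit genes and the 27 small subunit genes, 4 arrays a group. Falls that passed the test reach −0.42 at MRPS12 and −0.37 at MRPL34, and the 4 rises, MRPL46, MRPL18, MRPS11 and MRPS18A, stand apart from the other genes.

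In the small subunit 9 of 27 genes fell (33.3%), 2 rose (7.41%) and 16 were not called. In the large subunit 11 of 48 genes fell (22.9%), 2 rose (4.17%) and 35 were not called. The share of falls in the large subunit was thus close to the 18.7% of genes of like level, while that in the small subunit was higher. The median changes of −0.06 and −0.05 were nearly equal, and the lower quartile of the changes was −0.24 for small subunit genes and −0.13 for large subunit genes. The difference between the subunits was not tested. With every probe set on its own the small subunit median was −0.10, and without probe sets of the _x_at and _s_at types the medians were −0.09 for 16 small subunit genes and −0.03 for 28 large subunit genes. A called fall of at least 1.2-fold was seen in 7 small subunit genes and in 2 large subunit genes, against 5.87% of all genes, and a called rise of that size in 1 member, MRPL46, against 5.57%. The groups did not overlap in 14 of 27 small subunit genes and 24 of 48 large subunit genes (51.9% and 50%), against 24.1% of all genes. Of the 38 members without overlap 29 were lower and 9 higher with estradiol (12.9% and 11.1% of all genes), while among genes of like level 25.7% were lower and 27.4% higher without overlap, so lack of overlap as such was no more frequent in the members. With median centring of each array, 11 members fell, 7 of the small and 4 of the large subunit, and 4 rose. In that fit 6.53% of all genes fell and 8.39% rose. The split of the members' calls moved to 73.3% falls, against 83.3% in the authors' scaling. Without estradiol replicate 4 or vehicle replicate 4 the falls in the large subunit numbered 7. Fits that left out 1 array called 13.8 to 18% of all genes.

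**Figure D2:**
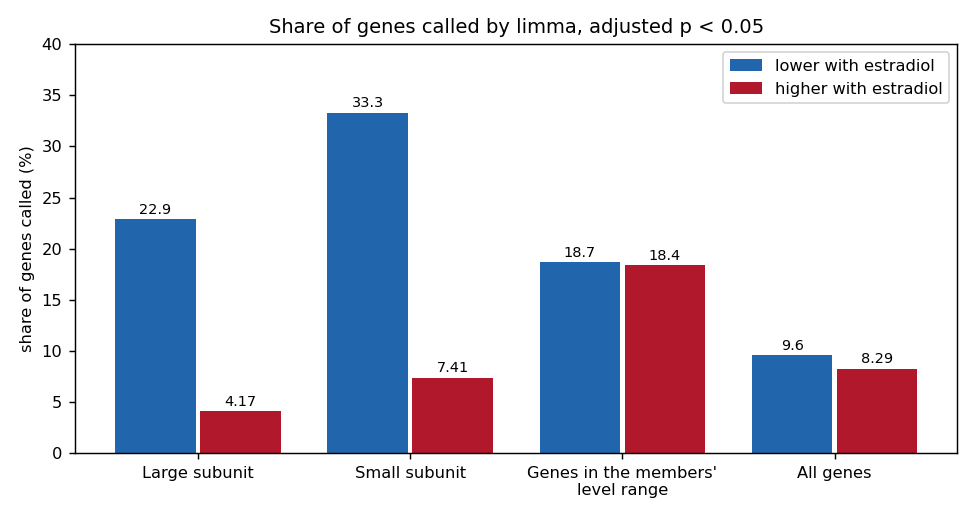
Bars give the share of genes (percent) called lower or higher with estradiol by limma at adjusted p below 0.05, for large subunit genes, small subunit genes, the 4108 genes within the members' range of levels, and all 19775 genes. Falls took 22.9% and 33.3% of the subunits' genes, against 18.7% of genes of like level, and rises took 4.17% and 7.41%, against 18.4%.

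The number of members called moved with the threshold and the fit, while falls outnumbered rises in both subunits in each of the settings given here. At adjusted p below 0.01, 8 small and 6 large subunit genes fell and 2 of each rose, against 5.76% and 5.26% of all genes. In a fit limited to the 9887 genes above the median level, 12 small and 16 large subunit genes fell while 2 and 3 rose. In that fit 22.9% of the genes fell and 20.3% rose, and in the fit over all genes 17% and 15.1% of the same genes did. With a variance trend and a robust fit, 12 small and 17 large subunit genes fell and 2 and 4 rose, against 11.4% and 10.7% of all genes.

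Averaged over its genes, the small subunit stood at a log2 level of 10.32 to 10.34 on the estradiol arrays and 10.40 to 10.46 on the vehicle arrays. The large subunit stood at 10.39 to 10.41 with estradiol and 10.41 to 10.47 with vehicle. Vehicle replicate 2 was the lowest vehicle array for both, at 10.40 and 10.41. Within each array the large subunit mean exceeded the small subunit mean by 0.06 to 0.07 with estradiol and by 0.01 to 0.02 with vehicle. The groups did not overlap in this difference. A constant shift of a whole array, as in centring, cancels in it, and the part of other kinds of array scaling was not tested. With MRPS30 and MRPS18A moved to the large subunit, where their proteins sit, the difference was 0.01 to 0.03 with estradiol and −0.03 with vehicle.

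Among the falls of the small subunit, MRPS12 belongs to the decoding centre, where codon and anticodon are matched. Its log2 levels were 10.53, 10.49, 10.58 and 10.50 on the estradiol arrays, against 10.93, 10.95, 10.95 and 10.95 on the vehicle arrays. Every estradiol array was lower than every vehicle array, and the spread within each group was a small part of the gap. The difference was −0.42 ± 0.04 (SE, limma adjusted p = 8.79e-05). Of its 4 probe sets 3 were called lower, with differences from −0.66 to −0.42, and the dimmest had −0.17. Over all single-symbol probe sets, each tested on its own, 6.54% were called lower and 6.61% higher. The stretch between the starts of MRPS12 and its head-to-head neighbour SARS2, chr19:38930764-38930953 (GRCh38.p14, plus strand), is shown as the promoter of the member with the largest fall. Capitals mark CCGGAAG, the letters searched for ETS factors such as GABPA, which end 8 bases ahead of the later of the 2 annotated starts.
MRPS12: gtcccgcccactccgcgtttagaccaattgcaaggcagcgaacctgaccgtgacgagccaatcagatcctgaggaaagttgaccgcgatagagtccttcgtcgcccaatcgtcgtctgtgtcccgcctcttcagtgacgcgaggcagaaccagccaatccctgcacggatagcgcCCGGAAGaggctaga

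MRPS34, a small subunit protein with no bacterial counterpart, had log2 levels of 9.51, 9.61, 9.63 and 9.55 with estradiol, against 9.96, 9.99, 10.01 and 9.98 with vehicle. The groups were far apart, and the difference was −0.41 ± 0.04 (adjusted p = 0.000179). MRPS26, also specific to mitochondria and the dimmest gene of its subunit, stood at 9.21, 9.18, 9.16 and 9.08 with estradiol and 9.55, 9.49, 9.52 and 9.47 with vehicle. It differed by −0.35 ± 0.04 (adjusted p = 0.000589), while its other probe set, near the array medians in level, showed −0.10. The same class held MRPS23 (−0.27 ± 0.04), MRPS22 (−0.21 ± 0.04) and MRPS35 (−0.18 ± 0.05), so that 5 of its 10 genes fell (50%) and 0 rose. Falls made up 18.7% of genes of like level and 9.6% of all genes. All 4 probe sets of MRPS22 were called lower, and all are of the _x_at type, probe sets of shared sequence. MRPS35 is outside the rule for named genes and was named after its values were seen. MRPS27, an RNA-binding member of this class, differed by −0.10 ± 0.04 without passing the test (adjusted p = 0.131), although its groups did not overlap.

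Of the 15 small subunit genes with a bacterial counterpart 3 fell (20%), MRPS12 among them, 1 rose and 11 were not called. That share of falls was close to the 18.7% of genes of like level, against 9.6% of all genes. MRPS2 stood at 9.63, 9.63, 9.65 and 9.54 with estradiol and 9.94, 9.91, 9.87 and 9.89 with vehicle, a difference of −0.29 ± 0.04 (adjusted p = 0.00124). MRPS17 was 9.96 ± 0.05 with estradiol and 10.24 ± 0.04 with vehicle (SD, n = 4), a difference of −0.29 ± 0.04 (limma adjusted p = 0.00156). Members of this class at the ends of the level range did not pass the test. MRPS15, the brightest member of all, differed by 0.02 ± 0.05 at a mean log2 level of 12.13, and MRPS9, near the low end of its subunit, by −0.04 ± 0.05.

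MRPS30 and MRPS18A carry small subunit symbols, but their proteins sit in the large subunit of the solved structures, and they moved in opposite directions. MRPS30 had log2 levels of 10.47, 10.37, 10.42 and 10.42 with estradiol, against 10.83, 10.71, 10.84 and 10.72 with vehicle. The groups did not overlap, and the difference was −0.36 ± 0.05 (adjusted p = 0.00095), with all 3 of its probe sets called lower at −0.45 to −0.36. MRPS18A had 9.63, 9.60, 9.67 and 9.63 with estradiol, against 9.48, 9.41, 9.39 and 9.38 with vehicle. It was higher on every estradiol array, by 0.22 ± 0.04 (adjusted p = 0.00611), and both its probe sets were called higher. Its paralogues did not pass the test, with MRPS18B at −0.02 ± 0.04 and MRPS18C at 0.01 ± 0.04. The stretch between MRPS30 and a divergent RNA gene, chr5:44808794-44808946 (GRCh38.p14, plus strand), is shown because it holds the letters searched for C/EBP factors. It was picked for this match and not by the size of the change, and a link of the letters to the fall was not tested. Capitals mark the letters, TTGCNNAA, 16 bases ahead of the MRPS30 start.
MRPS30: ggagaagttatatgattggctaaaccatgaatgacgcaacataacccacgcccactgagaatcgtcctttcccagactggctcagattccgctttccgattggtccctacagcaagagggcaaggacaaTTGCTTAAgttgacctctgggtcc

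**Figure D3:**
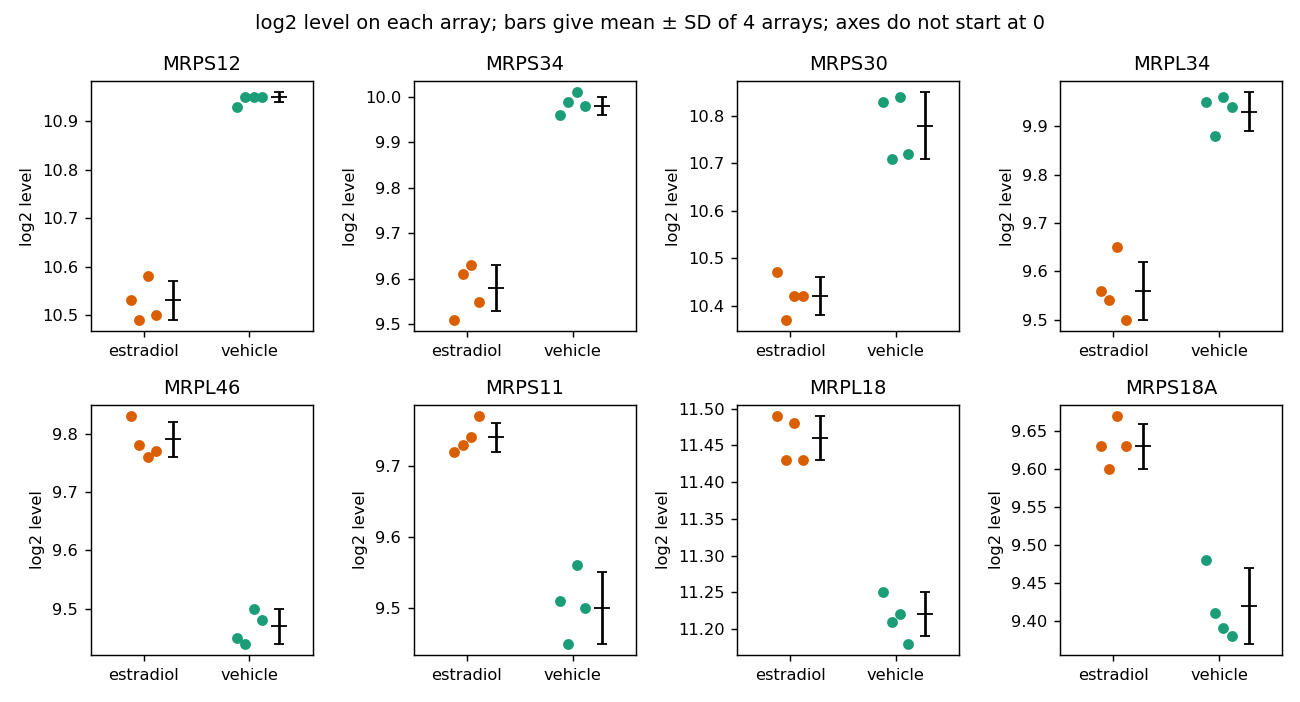
The log2 level of 8 members on each array, estradiol left and vehicle right, with points for arrays and bars for the mean ± SD of 4 arrays; each panel has its own axis, which does not start at 0. MRPS12, MRPS34, MRPS30 and MRPL34 were lower and MRPL46, MRPS11, MRPL18 and MRPS18A higher on every estradiol array than on any vehicle array.

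In the large subunit the falls came mostly from proteins with a bacterial counterpart. Of 29 such genes 9 fell (31%), 1 rose and 19 were not called, with a median change of −0.09. Of 18 genes specific to mitochondria 1 fell (5.56%), 1 rose and 16 were not called, with a median of −0.02. Falls made up 9.6% of all genes and 18.7% of genes of like level, and rises 8.29% and 18.4%. MRPL3, MRPL12 and MRPL32, all with a bacterial counterpart, lost their calls in 10 or 11 of 18 or 19 refits. In the small subunit the order of the classes was the other way round, with medians of −0.16 for 10 mitochondria-specific genes and −0.04 for 15 with a bacterial counterpart. These classes were compared by counts and medians alone, without a test. MRPL55, left unclassified, fell by 0.17 on its brighter probe set, while the dimmer one showed 0.12.

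MRPL34, a short rRNA-binding protein, had the largest fall of its subunit. Its log2 levels were 9.56, 9.54, 9.65 and 9.50 with estradiol, against 9.95, 9.88, 9.96 and 9.94 with vehicle. Every estradiol array lay below every vehicle array, and the difference was −0.37 ± 0.05 (limma adjusted p = 0.000519). MRPL36, another very short protein of the large subunit, stood at 11.06, 11, 11.06 and 11.01 with estradiol and 11.32, 11.24, 11.33 and 11.34 with vehicle. It differed by −0.28 ± 0.04 (adjusted p = 0.00157). RefSeq lists 4 starts for MRPL34, and no value here tells which is used, so the 250 bases ahead of the single listed start of MRPL36, chr5:1799838-1800087 (GRCh38.p14, minus strand), are shown in their place. Capitals mark the E-box CACGTG, the letters bound by MYC and its partner MAX, 50 bases ahead of that start.
MRPL36: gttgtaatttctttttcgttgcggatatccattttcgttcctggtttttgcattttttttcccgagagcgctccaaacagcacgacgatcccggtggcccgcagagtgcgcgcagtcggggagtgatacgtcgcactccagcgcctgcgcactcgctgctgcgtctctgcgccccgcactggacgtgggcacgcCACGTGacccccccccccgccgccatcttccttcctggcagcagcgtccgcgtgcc

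MRPL4, which helps to line the exit tunnel, was 9.98, 9.90, 9.87 and 9.91 with estradiol and 10.23, 10.20, 10.15 and 10.12 with vehicle. All 3 of its probe sets were called lower, and the brightest differed by −0.26 ± 0.04 (adjusted p = 0.00327). MRPL17 differed by −0.22 ± 0.04 and MRPL14, a protein at the face between the subunits, by −0.20 ± 0.04. MRPL50, the single mitochondria-specific gene of the large subunit that fell, also differed by −0.20 ± 0.04. Its dimmer probe sets, at −0.14 and −0.26, were not called when each was tested on its own. MRPL21 and MRPL32 fell by 0.17 each, and MRPL32 is known to be cut by a mitochondrial protease before it joins the ribosome.

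MRPL12, MRPL3 and MRPL32 passed the test by a narrow margin. MRPL12 forms the stalk that recruits translation factors and is also known to bind the mitochondrial RNA polymerase. It was 10.28 ± 0.05 with estradiol and 10.43 ± 0.03 with vehicle (SD, n = 4), a difference of −0.15 ± 0.04 (limma adjusted p = 0.0304). Its other probe set, at a mean of 5.8 in both groups, showed 0.00, and the mean of both probe sets differed by −0.08 (adjusted p = 0.435). MRPL3, a core protein near the site of peptide bond formation and the brightest gene of its subunit, differed by −0.15 ± 0.04 (adjusted p = 0.0338). When arrays were left out in turn, MRPL12 lost its call in 5 of the 8 fits, at adjusted p up to 0.0942. The exceptions were the fits without estradiol replicate 3, vehicle replicate 1 or vehicle replicate 2. MRPL3 lost its call in all but the fit without vehicle replicate 2, at up to 0.0944, and MRPL32 in all but the fit without estradiol replicate 1, at up to 0.12. MRPL55 lost its call in 3 such fits, those without estradiol replicate 3, estradiol replicate 4 and vehicle replicate 4, with adjusted p up to 0.0656. MRPL11, at the base of the same stalk as MRPL12, differed by 0.01 ± 0.04 (adjusted p = 0.923). At the ends of the level range, MRPL40 (0.07 ± 0.04) and MRPL43 (−0.05 ± 0.05) did not pass the test.

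The rises ran against the members' median. MRPL46 had log2 levels of 9.83, 9.78, 9.76 and 9.77 with estradiol, against 9.45, 9.44, 9.50 and 9.48 with vehicle, a difference of 0.32 ± 0.04 (adjusted p = 0.000513). MRPS11, a protein of the small subunit platform, had 9.72, 9.73, 9.74 and 9.77 with estradiol, against 9.51, 9.45, 9.56 and 9.50 with vehicle, a difference of 0.23 ± 0.04 (adjusted p = 0.00367). The groups were well apart for both genes. Of the probe sets of MRPS11 the brighter was called and the dimmer showed 0.10, while MRPL46 had a single probe set. These genes, the ones with the largest rise in each subunit, are neighbours on chromosome 15 and start head to head, 320 bases apart, and no other members with a promoter entry form such a pair. The 250 bases ahead of MRPS11, chr15:88467458-88467707 (GRCh38.p14, plus strand), are shown with the 181 bases in capitals that also lie within 250 bases ahead of MRPL46, whose strand is the opposite one.
MRPS11: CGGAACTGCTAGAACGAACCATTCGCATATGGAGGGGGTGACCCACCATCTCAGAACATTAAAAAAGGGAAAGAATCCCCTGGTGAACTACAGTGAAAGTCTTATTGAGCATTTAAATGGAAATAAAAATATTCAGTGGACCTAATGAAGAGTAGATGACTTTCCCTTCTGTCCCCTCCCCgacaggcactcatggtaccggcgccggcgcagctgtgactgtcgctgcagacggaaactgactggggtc

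MRPL18, a large subunit protein that is known to bind the small ribosomal RNA 5S, stood at 11.49, 11.43, 11.48 and 11.43 with estradiol and 11.25, 11.21, 11.22 and 11.18 with vehicle. It was thus higher on every estradiol array, by 0.24 ± 0.04 (adjusted p = 0.00265). All 4 rises kept their call in every fit that left out 1 array.

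Head-to-head starts were then listed for all members after this pair had been seen. Of the 67 members with a RefSeq promoter entry, 25 had a gene on the opposite strand starting within 1000 bases ahead of them, and 19 distinct pairs had both genes measured. In 1 pair, MRPL46 and MRPS11, both genes rose, and in 0 pairs did both fall. In 5 pairs the member fell and its neighbour was not called, and in 8 neither was called. In 5 the neighbour alone was called, 2 lower and 3 higher. Over all genes 9.6% fell and 8.29% rose. SARS2, the mitochondrial seryl-tRNA synthetase that shares its upstream stretch with MRPS12, stood at 7.99 ± 0.03 with estradiol and 7.97 ± 0.09 with vehicle (SD, n = 4), a difference of 0.02 ± 0.05 (limma adjusted p = 0.843). PSMA2, a proteasome subunit that starts 202 bases from MRPL32, differed by 0.09 ± 0.04 (adjusted p = 0.250).

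**Figure D4:**
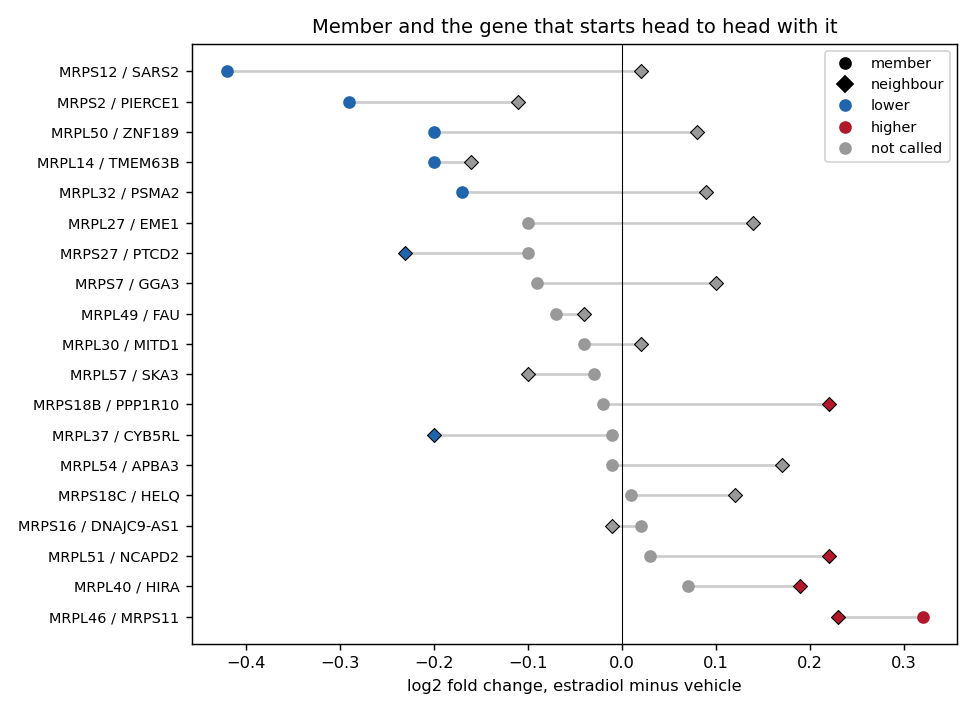
Log2 fold changes, estradiol minus vehicle, of members (circles) and of the genes that start head to head with them within 1000 bases (diamonds), 19 pairs, with colour for the limma call. MRPL46 and MRPS11 were both higher, and next to MRPS12 (−0.42) its neighbour SARS2 differed by 0.02.

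Over the 300 bases around a start (250 ahead and 50 after), 38.6% of the 83 member windows held CCGGAAG on either strand, against 10.3% of all 35116 windows. The letters were present for 6 of 19 members that fell (31.6%), 2 of 4 that rose and 21 of 44 that were not called (47.7%). CACGTG was found in 10.8% of member windows and 7.26% of all windows, for 3 of the members that fell (MRPL14, MRPL36 and MRPS2) and 6 of those not called. TTGCNNAA was found in 8.43% of member windows and 10.5% of all windows, for 2 members that fell, 1 that rose and 4 not called. The palindromic NRF1 motif was found in 1.2% and 1.24%. A match describes the letters of a window and not a site in use, and members with several starts count with each.

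Genes around the mitochondrial ribosome were described from lists of its assembly, its translation factors and its regulators. Of 28 genes of assembly and rRNA modification 8 fell (28.6%), 0 rose and 20 were not called, with a median change of −0.07. Falls made up 9.6% of all genes and 17% of genes above the median level, and rises 8.29% and 15.1%. Median centring of each array left 4 calls in this list, and the variance trend with a robust fit gave 13. MRM1 and RPUSD4, which modify the rRNA of the large subunit, differed by −0.38 ± 0.07 and −0.31 ± 0.04. MPV17L2, an inner membrane protein needed for assembly, and RBFA, which matures the small subunit, differed by −0.24 ± 0.05 and −0.23 ± 0.05. With the mean of all its probe sets RBFA differed by −0.32 and was not called (limma adjusted p = 0.0717). DDX28, MRM3, MTERF3 and TRUB2 made up the rest of the falls.

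Of 18 measured translation factors 4 fell (22.2%), 0 rose and 14 were not called, with a median of −0.06. Among all genes 9.6% fell and 8.29% rose, and among genes above the median level 17% and 15.1%. The elongation factor genes TSFM and GFM1 differed by −0.21 ± 0.04 and −0.17 ± 0.04. GATC, part of the enzyme that makes glutaminyl-tRNA, and OXA1L, which inserts new chains into the inner membrane, differed by −0.16 ± 0.04 and −0.15 ± 0.04. Without estradiol replicate 2 or vehicle replicate 3 or 4 this list held 1 fall, and without estradiol replicate 1 it held 2. Of 4 further ribosome proteins with other symbols 1 fell, the small subunit protein PTCD3 (−0.16 ± 0.04, adjusted p = 0.0239), and that call was lost without any of estradiol replicates 2 to 4 or vehicle replicate 3 or 4.

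Of 18 genes of mitochondrial transcription, DNA maintenance and their nuclear regulators 7 fell (38.9%), 0 rose and 11 were not called. The median change of this list was −0.05, against −0.03 over all genes. Falls made up 9.6% of all genes and 17% of genes above the median level, and rises 8.29% and 15.1%. MYC, a growth regulator, had the largest change at −1.19 ± 0.04 (adjusted p = 1.69e-07). TWNK, the helicase of mitochondrial DNA, differed by −0.60 ± 0.06 and the coactivator PPARGC1B by −0.56 ± 0.09. TFB2M, which starts mitochondrial transcription with the polymerase POLRMT, stood at 10.73 ± 0.03 with estradiol and 11.18 ± 0.08 with vehicle (SD, n = 4), a difference of −0.45 ± 0.05 (limma adjusted p = 0.00021). With the mean of all 4 of its probe sets TFB2M differed by −0.15 and was not called (limma adjusted p = 0.239). The regulators NRF1 (0.02 ± 0.06) and GABPA (0.18 ± 0.08) did not pass the test.

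Cytosolic ribosomal protein genes and genes of the respiratory chain were set beside the share of all genes called, 17.9%. Of 61 cytosolic ribosomal protein genes 1 fell and 0 rose (1.64%), with a median change of 0.00. Their median log2 level was 13.57, against 10.45 for the members. Of 78 genes of the respiratory chain and ATP synthase, the complexes whose organelle-encoded subunits the mitochondrial ribosome makes, 0 fell and 2 rose (2.56%), with a median of 0.03. Their median log2 level was 11.57. For 21 of these 78 genes (26.9%) estradiol and vehicle arrays were without overlap, against 24.1% of all genes. Of the 21, 17 were higher and 4 lower with estradiol, against 11.1% and 12.9% of all genes. Among genes in the members' level range 27.4% were higher and 25.7% lower without overlap. Calls among the 78 genes numbered 8 in the fit on genes above the median level and 16 with the variance trend and robust fit. No difference between these groups and the members was tested.

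**Figure D5:**
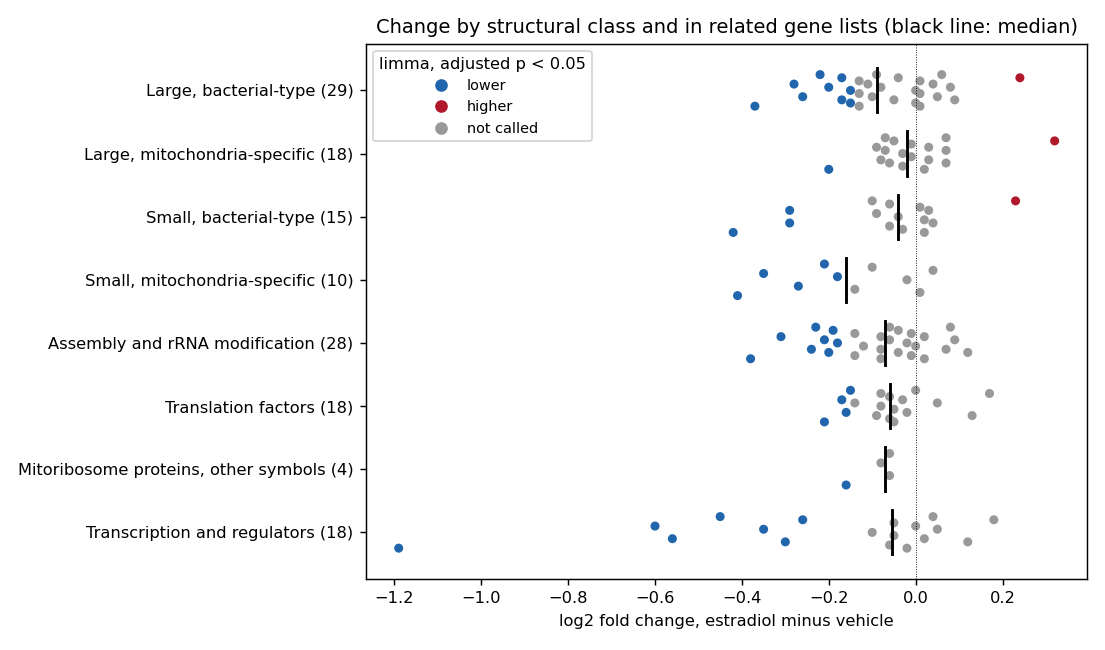
Each point is the log2 fold change of 1 gene, estradiol minus vehicle, by structural class of the members and in the related lists, with the number of genes in parentheses, the median as a black line and colour for the limma call. Medians run from −0.16 in mitochondria-specific small subunit genes to −0.02 in mitochondria-specific large subunit genes, and the 4 related lists drawn hold falls and no rise.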

How the data were processed

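Gene expression was measured on 8 arrays, 4 of estradiol-treated and 4 of vehicle-treated K562 cells, from 200 ng of RNA each. The authors deposited log2 values per probe set, and the submitters' processing notes name RMA as the method. Its version and the chip definition were not given in the sources used here, nor was a genome build. Of 54675 probe sets 41097 carried 1 gene symbol in the platform annotation, 1801 several and 11777 none. Each of the 19775 genes was taken at its single-symbol probe set with the highest mean over the 8 arrays, and the values were not scaled again.

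Estradiol was compared with vehicle by limma 3.58.1 (lmFit and eBayes, R 4.3.3) over all genes, with Benjamini-Hochberg adjustment and a threshold of 0.05. The fit was tested on simulated data. Figures were drawn with matplotlib 3.10.9. The p-values set the difference between the groups against the spread among the samples within a group. The labels call the samples biological replicates without naming separate cultures, so whether that spread covers separate cultures is not known. The groups share replicate numbers, but deviations of same-numbered arrays correlated at −0.21 to 0.11, so the numbers were not taken as pairs.

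The members, gene lists and rules were chosen with earlier results of these data known. Named genes were, in each subunit, up to 8 falls and 4 rises with the largest change and the 2 highest and 2 lowest in level, with MRPL11, MRPL12, MRPS12, MRPS18A, MRPS18B, MRPS18C, MRPS27, MRPS30 and MYC whatever their values, and up to 4 called genes of each other list. GABPA, NRF1, POLRMT, the neighbours of members and the remaining falls of the assembly list were named after their values were seen. The comparison with genes of like level was also added after the values were seen. Promoter sequences came from RefSeq (GRCh38.p14), with entries for 67 members.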

Additional observations from a re-analysis of the deposited data

Results flagged for a closer look

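Each group of 4 arrays was searched for an array farther from the other 3 than Dixon's limit allows, for the 31 named members and the subunit scores. Of 68 groups 5 held such an array, and chance gives about 1 in 20.

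MRPL17 stood at 8.76 on vehicle replicate 1, against 8.65 to 8.66 on the other vehicle arrays. MRPS2 stood at 9.54 on estradiol replicate 4, with 9.63 to 9.65 on the other estradiol arrays. MRPS22 was 10.62 on vehicle replicate 2 and 10.72 to 10.74 on the others. MRPL12 was 10.47 on vehicle replicate 4 and 10.42 on each of the others. The large subunit mean minus the small subunit mean was 0.02 on vehicle replicate 4 and 0.01 on the other vehicle arrays. Each of these gaps was smaller than the difference between the groups.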

How the results depend on the processing

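No named gene with a call changed direction in the alternatives run, and the subunit medians stayed below 0. MRPL11, MRPL43, MRPS15, MRPS18B and MRPS18C, none of them called, changed sign in some. Of 23 called members that the text names by rule 15 kept their call in each refit at the same threshold in which their probe sets were measured (18 or 19 refits a gene), and MRPL3, MRPL12, MRPL14, MRPL21, MRPL32, MRPL50, MRPL55 and MRPS22 lost it in some. Counts below are of called genes, and the cause of each move was not tested.

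Leaving out 1 array at a time gave 7 to 11 falls and 2 rises in the large subunit, 8 to 9 falls and 2 rises in the small subunit, median changes of −0.07 to −0.03 and −0.08 to −0.06, and calls in 13.8 to 18% of all genes. It gave 1 to 5 calls among translation factors, 6 to 10 in assembly, 7 in transcription, 0 to 1 for proteins with other symbols, 0 to 1 for cytosolic ribosomal proteins and 0 to 2 for the respiratory chain.

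With the replicate number as a block in the fit, the replicate block left 6 falls in the large subunit, 1 translation factor and 0 calls each for proteins with other symbols, cytosolic ribosomal proteins and the respiratory chain. Small subunit falls numbered 8 in that fit, and 13.1% of all genes were called.

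Median centring of each array moved the median of all genes to 0.01, against −0.03 in the authors' scaling. It gave 4 large subunit falls, medians of −0.01 (large) and −0.02 (small), 1 translation factor, 4 assembly genes, 1 respiratory chain gene and 0 calls for proteins with other symbols and cytosolic ribosomal proteins. With this centring 6.53% of all genes fell and 8.39% rose. Of all calls 43.8% were then falls, against 53.7% in the authors' scaling, so the more frequent direction over all genes changed. Centring on the 75th percentile gave medians of −0.07 and −0.08 and 1 respiratory chain gene. Quantile normalization gave 17 large subunit falls, medians of −0.08 and −0.08 and 7 translation factors. With it 11.4% of all genes fell and 9.37% rose.

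Genes above the median level alone gave 43.2% called, 7 translation factors, 2 cytosolic ribosomal proteins and 8 respiratory chain genes. The mean of all probe sets gave 0 proteins with other symbols, and GFM1 (−0.09), MRPL12, MRPL55 (−0.02), PTCD3 (−0.16), RBFA and TFB2M lost their calls. Each probe set on its own gave a small subunit median of −0.10, 0 cytosolic ribosomal proteins and 5 respiratory chain genes, and left MRPL3, MRPL12 and MRPL32 without a call. A variance trend with a robust fit gave 17 large subunit falls and 4 rises, 8 translation factors, 13 assembly genes, 2 proteins with other symbols, 3 cytosolic ribosomal proteins and 16 respiratory chain genes. Array weights gave 2 cytosolic ribosomal proteins.

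At adjusted p below 0.01 there were 6 large subunit falls, 11% of all genes called, 1 translation factor, 5 assembly genes and 0 in the remaining lists but transcription. At 1.2-fold or more there were 2 large subunit falls and 1 rise, 0 small subunit rises, 11.4% of all genes called, 2 assembly genes and 0 in those lists or among translation factors, and MRPL4, MRPL17, MRPL18, MRPS11 and MRPS18A were among the members below that fold. With MRPS30 and MRPS18A in the large subunit, 1 small subunit gene rose. Without probe sets of shared sequence (_x_at and _s_at), which leaves 28 large and 16 small subunit genes measured, 3 large subunit genes fell and 1 rose, 5 small subunit genes fell and 1 rose, medians were −0.03 and −0.09, and 0 cytosolic ribosomal proteins were called.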
